A study of Rattus norvegicus with 15 samples.

Results

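Fndc3c1, Arhgap36 and Agtr2 are 3 genes whose signal in rat knee cartilage stood high in the newborn and far lower at every later stage. Each was represented by 1 probe set carrying that gene symbol alone, 3 of 36685 probe sets and 3 of 18166 named genes. They were chosen by their measured levels, high on the newborn arrays and low on all later ones, so the newborn level and the steps out of it are described here without a test. Articular cartilage came from right knees of the Sprague-Dawley strain at 5 stages, namely T0 (newborn), T1 (youth), T2 (adult), T3 (the early elderly stage) and T4 (the latter elderly stage). The labels name no treatment or genetic change at any stage and give neither age nor sex. Each stage had 3 arrays, called biological replicates in the labels, each of total RNA from cartilage harvested individually and hybridised to an Affymetrix RaGene 2.0 ST array. The source name of T1 replicate 3 calls it adult, against its title and developmental stage, which say youth, and it was kept in T1. The labels do not say whether the 3 came from separate animals, so p-values measure the spread between these samples.

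Agtr2 encodes the angiotensin II type 2 receptor, a G protein-coupled receptor of the renin-angiotensin system. It is known for high expression in fetal tissues, mesenchyme among them, and for low expression in most adult tissues. In that system angiotensinogen is cleaved by renin and by angiotensin-converting enzyme to angiotensin II, which acts mainly through the type 1 receptors in the adult. Arhgap36 encodes a protein known from mouse and human cells to block the catalytic subunit of protein kinase A and to activate the Gli transcription factors of the hedgehog pathway. Fndc3c1 encodes a protein of fibronectin type III domains, and less is known of it than of its relatives Fndc3a and Fndc3b.

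The 3 genes lie on the X chromosome, a feature that the choice did not use. The promoter sequences are shown because the genes were high in the same stage. They are the 250 bases before a transcription start in the RefSeq table (build GRCr8), 5′ to 3′ on the gene's strand, at chrX:75619194-75619443 (minus strand) for Fndc3c1, chrX:133635746-133635995 (plus strand) for Arhgap36 and chrX:116914070-116914319 (plus strand) for Agtr2. Capitals mark the motifs found.
Fndc3c1: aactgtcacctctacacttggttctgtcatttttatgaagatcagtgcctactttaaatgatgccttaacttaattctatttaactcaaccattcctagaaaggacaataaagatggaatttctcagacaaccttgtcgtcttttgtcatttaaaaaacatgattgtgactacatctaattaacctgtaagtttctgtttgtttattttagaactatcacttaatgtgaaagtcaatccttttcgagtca
Arhgap36: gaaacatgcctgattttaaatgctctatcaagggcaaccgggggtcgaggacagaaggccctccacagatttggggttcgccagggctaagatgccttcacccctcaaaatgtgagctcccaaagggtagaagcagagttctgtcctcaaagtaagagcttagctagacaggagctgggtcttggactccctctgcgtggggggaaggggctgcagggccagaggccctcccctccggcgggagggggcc
Agtr2: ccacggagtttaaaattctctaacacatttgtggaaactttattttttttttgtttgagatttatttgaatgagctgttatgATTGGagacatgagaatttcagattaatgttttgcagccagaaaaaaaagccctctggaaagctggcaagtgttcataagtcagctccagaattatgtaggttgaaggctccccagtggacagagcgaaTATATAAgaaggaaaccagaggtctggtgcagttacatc

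The windows of Fndc3c1 and Agtr2 were rich in A and T, with 32.0% and 38.0% G or C, and that of Arhgap36 held 58.8%, against a median of 52.0% and quartiles of 44.4% and 60.8% over 27457 promoters. In the Agtr2 window the letters TATATAA, a form of the TATA box, began at position -39 from the start, and 3.40% of all promoters hold them on either strand. That form was searched after the sequence had been read. CCAAT lay in the same window on the other strand, starting at position -168, and 34.3% of promoters hold it. The other letters searched on both strands were TATAAA (13.1% of promoters), GGGCGG of the GC box (32.4%), CAGCTG of the E-box (11.9%), GACCACCCA of the Gli factors (0.331%), TGACGTCA of the cyclic AMP response element (1.70%) and CTTTGTT of the Sox factors (5.01%). These 6 were not in any of the 3 windows. The Fndc3c1 start lies inside the annotated gene, and the Arhgap36 start is 1 of 2 in the table.

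All arrays lay within a narrow range of medians, 4.94 to 5.28 on the log2 scale. The spread of signals was narrower late in life, with a standard deviation over probe sets between 2.00 and 2.05 on the arrays of T0 to T2, between 1.83 and 1.97 at T3 and between 1.48 and 1.71 at T4. Olfactory receptor genes, which serve odour sensing and here mark the low end of an array, had a median over 1185 genes of 2.84 to 3.03 on the arrays of T0 to T2, 3.00 to 3.41 at T3 and 3.57 to 4.38 at T4. The median of 55 genes for ribosomal proteins, abundant transcripts of all cells, was 9.73 to 10.16 on the arrays of T0 to T2, a mean of 9.82 at T3 and 6.63 to 9.13 at T4, with the lowest value in T4 replicate 1. The number of arrays limits the precision. Cartilage markers were present at T0, where the type II collagen Col2a1 averaged 12.36 and aggrecan, Acan, 11.68, and the mean over 10 measured markers ran from 10.10 to 10.30 at T0, 9.64 to 9.69 at T1, 8.37 to 8.95 at T2, 7.13 to 7.93 at T3 and 6.16 to 6.99 at T4.

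**Figure D1:**
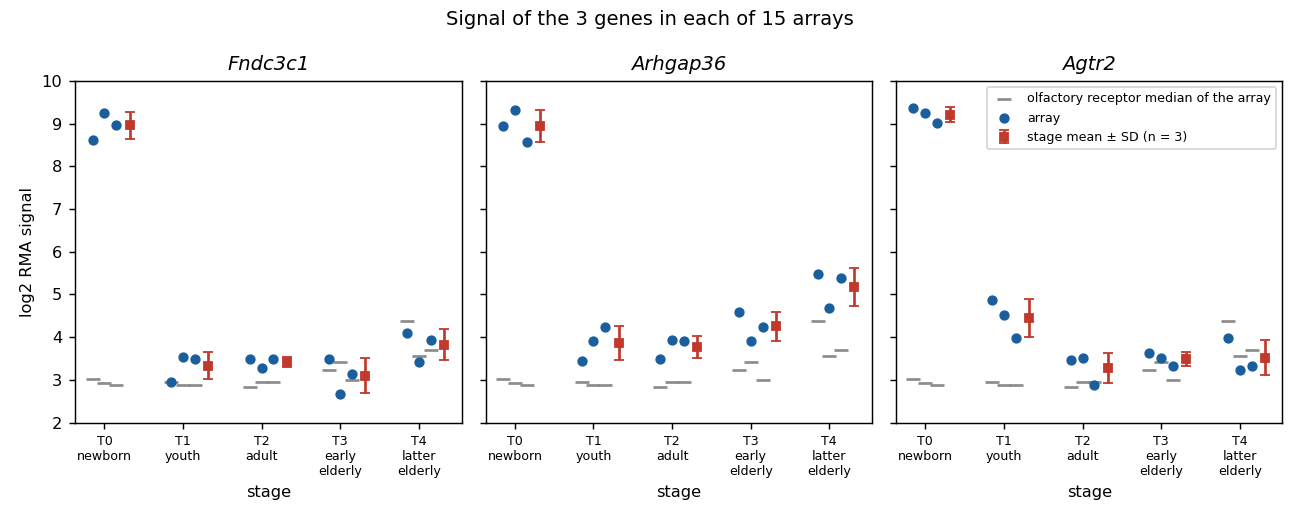
Log2 RMA signal (y axis) of Fndc3c1, Arhgap36 and Agtr2 on each of 15 arrays by stage (x axis); blue points are arrays, red squares stage means with SD (n = 3), and grey dashes the median of 1185 olfactory receptor genes on the same array. The T0 arrays lie between 8.57 and 9.36 for all 3 genes, and the highest later array is Arhgap36 at 5.47 in T4.

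Agtr2 had log2 signals of 9.36, 9.24 and 9.01 in the 3 newborn arrays, 4.86, 4.51 and 3.98 at T1, and 3.47, 3.51 and 2.87 at T2. It had 3.64, 3.50 and 3.32 at T3 and 3.99, 3.24 and 3.32 at T4. No newborn array overlapped a later one, and the lowest newborn array stood 4.15 above the highest later array, the seventh widest such gap among the 18166 genes. Its mean was 9.21 ± 0.18 at T0 and 4.45 ± 0.44 at T1 (SD, n = 3). At T2 it was 3.28 ± 0.36, at T3 3.49 ± 0.16 and at T4 3.52 ± 0.41. In order of mean the stages ran T0, T1, T4, T3 and T2, with the lowest T1 array (3.98) just under the highest T4 array (3.99) and the arrays of T4, T3 and T2 overlapping.

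Agtr2 came down in 2 parts. The T1 mean lay far below the T0 mean (log2 change -4.75, SE 0.27), a signal 27.0-fold lower in youth, and this step made up 80.2% of the log2 distance between newborn and adult. The T2 mean lay below T1 again (log2 change -1.17, SE 0.27), and the 3 adult arrays lay below the 3 youth arrays. At T1 the gene was 1.11 to 1.92 above the olfactory receptor median of its own array. At T2 that distance was -0.10 to 0.63. In the rank of genes within an array Agtr2 stood between the 96.6th and 97.6th percentile in newborn arrays, between the 19.4th and 34.7th in youth and between the 6.99th and 13.3rd in adult ones. Probe sets differ in affinity, so such a rank places a value on the array and does not measure the amount of a transcript.

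Fndc3c1 had log2 signals of 8.62, 9.26 and 8.98 at T0, 2.96, 3.54 and 3.49 at T1, and 3.49, 3.28 and 3.48 at T2. It had 3.49, 2.67 and 3.14 at T3 and 4.10, 3.42 and 3.93 at T4. The newborn arrays stood 4.52 or more above all later ones, the second widest gap of all genes after that of the perinatal muscle myosin Myh8 (7.06). The T1 mean was 3.33 ± 0.32, against 8.96 ± 0.32 at T0 (SD, n = 3), a log2 change of -5.63 (SE 0.26) and a signal 49.4-fold lower in youth. The means of the later stages were 3.42 ± 0.12 at T2, 3.10 ± 0.41 at T3 and 3.82 ± 0.36 at T4. In order of mean the stages ran T0, T4, T2, T1 and T3, and after T0 the arrays of neighbours in that order overlapped. The T2 mean lay 0.09 above T1 (SE 0.26), so the whole distance between newborn and adult had been covered by youth. On every array after T0 the gene lay between 0.74 below and 0.65 above the olfactory receptor median, as at T1 (0.02 to 0.64) and T3 (-0.74 to 0.26). RMA signals level off near the low end, so a fold against such a value is a measured ratio of signals and can understate that of transcripts.

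Arhgap36 had log2 signals of 8.95, 9.33 and 8.57 at T0, 3.45, 3.91 and 4.23 at T1, and 3.48, 3.94 and 3.90 at T2. It had 4.60, 3.91 and 4.23 at T3 and 5.47, 4.68 and 5.39 at T4. Newborn arrays again overlapped no later array, with a gap of 3.10 that ranked 14th. The T1 mean was 3.86 ± 0.39, against 8.95 ± 0.38 at T0 (SD, n = 3), a log2 change of -5.09 (SE 0.29) and a signal 34.0-fold lower in youth. Means of 3.77 ± 0.26 at T2, 4.25 ± 0.34 at T3 and 5.18 ± 0.44 at T4 followed. The T2 mean differed from T1 by -0.09 (SE 0.29). The arrays of T1, T2 and T3 overlapped one another, and the 3 arrays of T4 lay above all of them.

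T1 replicate 3, with its discordant source name, held the lowest of the 3 youth values for Agtr2 (3.98) and the highest for Arhgap36 (4.23). Without it the change from newborn to youth was -5.70 for Fndc3c1, -5.27 for Arhgap36 and -4.52 for Agtr2. In that setting the change from youth to adult was 0.17 for Fndc3c1, 0.09 for Arhgap36 and -1.40 for Agtr2. The direction for Arhgap36 in that step thus turned with 1 array, at values within the spread of the arrays. Quantile normalization of the deposited values gave a change between newborn and youth of -5.20 for Fndc3c1, -4.66 for Arhgap36 and -4.34 for Agtr2.

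The genes were chosen as low at all later stages, so their levels at T2, T3 and T4 entered the choice. The differences among those stages did not define it. A gene that rose far at T3 or T4 would not have been chosen, so the choice favours small differences among these stages. The p-values below come with that limit, and a change that did not pass is no evidence of a steady level. Between adult and early elderly cartilage none of the 3 genes passed limma's test. Fndc3c1 changed by -0.32 (SE 0.26, limma adjusted p = 0.512), Arhgap36 by 0.48 (SE 0.29, limma adjusted p = 0.373) and Agtr2 by 0.21 (SE 0.27, limma adjusted p = 0.686), and the arrays of T3 and T2 overlapped for each. At an unadjusted p under 0.05 the count of the 3 was also 0, against 7264 of 36685 probe sets. Over all probe sets 0.15% passed in this step, 0.0382% higher and 0.112% lower at T3.

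Between the elderly stages Arhgap36 rose at T4, by 0.93 on the log2 scale over T3 (SE 0.29, limma adjusted p = 0.0199), with the 3 arrays of T4 above those of T3. Fndc3c1 rose by 0.72 (SE 0.26, limma adjusted p = 0.0411), with 1 pair of arrays overlapping in range. Agtr2 changed by 0.03 (SE 0.27, limma adjusted p = 0.94). In this step 42.2% of all probe sets passed, 16.5% higher and 25.8% lower at T4, and the olfactory receptor median was 3.88 at T4, against 3.21 at T3, a rise of 0.67. Fndc3c1 lay between -0.28 and 0.23 of that median at T4, against -0.74 and 0.26 at T3. Arhgap36 lay 1.08 to 1.69 above it at T4, against 0.50 to 1.37 at T3. The part of the narrower signal range in both changes was not tested. The Fndc3c1 call ended after quantile normalization (log2 change 0.54, limma adjusted p = 0.124), with the replicate block (0.72, limma adjusted p = 0.0566), with the 6 arrays compared alone (0.72, limma adjusted p = 0.168) and when any of 9 arrays was left out, and the Arhgap36 call with the 6 arrays alone (0.93, limma adjusted p = 0.0971) and when any of 4 was left out.

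Newborn arrays also held more signal of skeletal muscle markers. All 10 measured muscle markers of 12 listed fell at T1, in a comparison where 7.56% of probe sets passed in either direction and 3.54% of probe sets and 4.93% of named genes were lower. Their mean log2 signal ran from 10.39 to 10.96 over the arrays of T0, 7.53 to 8.37 at T1, 4.58 to 5.05 at T2, 5.13 to 5.99 at T3 and 5.32 to 6.63 at T4. Of 10 tendon and fibroblast markers 2 fell at T1, the tendon protein Tnmd (log2 change -2.64, SE 0.38, limma adjusted p = 0.000406) and the matrix glycoprotein Thbs4 (-1.58, SE 0.32, limma adjusted p = 0.00574). The log2 of that list's summed signal ran from 14.4 to 14.5 at T0, at least 13.9 at T1, 12.9 to 13.7 at T2, 11.7 to 13.4 at T3 and 9.58 to 11.7 at T4. The muscle list in youth was above its adult range on every array. Of its 10 genes 8 fell again at T2, in a step where 0.403% of probe sets were lower. Youth and adult arrays overlapped for Fndc3c1 and for Arhgap36 and did not for Agtr2 (log2 change -1.17, SE 0.27). Fndc3c1 already lay 0.02 to 0.64 above the olfactory receptor median at T1. The muscle markers that did not fall again were Myh8, which averaged 3.79 at T1, against 11.51 at T0, and Myog, a transcription factor of muscle differentiation, which averaged 5.61 at T1, against 7.52 at T0. The part of muscle or connective tissue in the newborn signal of the 3 genes was not tested, and in bulk tissue fewer cells of a type and less RNA per cell cannot be told apart.

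**Figure D2:**
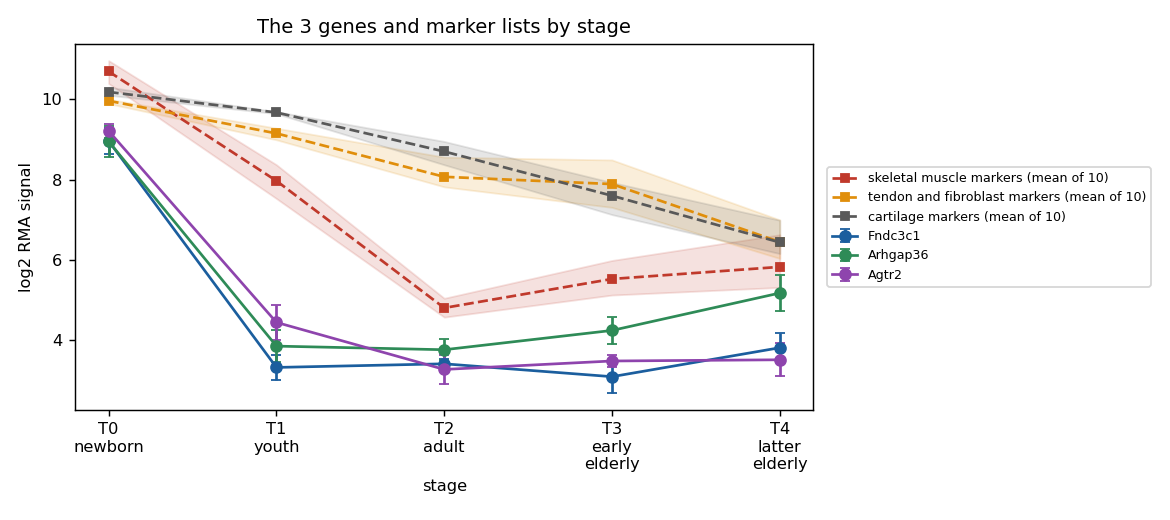
Mean log2 RMA signal (y axis) by stage (x axis) of the 3 genes (solid lines, SD bars, n = 3 arrays) and of 3 marker lists (dashed lines, mean over 10 measured genes, with the band from the lowest to the highest array). The muscle list lay between 7.53 and 8.37 at T1, where the stage means of the 3 genes were 3.33, 3.86 and 4.45.

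Other cell types moved in different ways over the same step. All 6 measured erythroid markers of 9 listed rose at T1, against 4.01% of probe sets and 6.28% of named genes higher, and 5 of 8 osteoblast markers rose. The erythroid mean was 10.89 to 11.11 at T1, against 5.68 to 6.96 at T0, and the osteoblast mean 8.94 to 9.28 at T1, against 6.85 to 7.85 at T0. Of 6 peripheral nerve markers 1 fell, and the list mean was 5.61 to 5.77 at T1, against 5.81 to 6.10 at T0. None of 5 endothelial markers passed limma's test, and none had an unadjusted p under 0.05, against 6024 of 36685 probe sets. Of the 10 cartilage markers 2 fell and none rose, against 4.93% of named genes lower and 6.28% higher. Their log2 changes ran from -2.57 to 1.61, with a median of -0.51.

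The list of the renin-angiotensin system had 15 measured genes of 19, Agtr2 apart, of which 1 fell and 1 rose at T1, against 4.93% of named genes lower and 6.28% higher, with a median log2 change of 0.38 beside -0.03 over all named genes. The count of higher genes was 3 without the T4 arrays and 5 with the 6 arrays compared alone, settings added after the data were seen. The gene that fell was the type 1 receptor Agtr1a, the main receptor for angiotensin II in most adult tissues. Its log2 signal was 5.24, 5.22 and 5.52 at T1, against 7.14, 6.94 and 6.56 at T0. The groups did not overlap, and the change was -1.55 (SE 0.24, limma adjusted p = 0.000802). Later stages kept Agtr1a near the youth level, with means of 4.72 ± 0.44 at T2, 4.89 ± 0.29 at T3 and 5.30 ± 0.11 at T4 (SD, n = 3). Agtr1b, the other rodent type 1 receptor, averaged 4.22 ± 0.34 at T1, against 4.40 ± 0.37 at T0, and did not pass (log2 change -0.18, SE 0.29, limma adjusted p = 0.937).

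Angiotensinogen, Agt, averaged 6.04 at T1, against 5.44 at T0 (log2 change 0.60, SE 0.24, limma adjusted p = 0.193). The converting enzyme Ace averaged 7.35 at T1, against 7.12 at T0 (log2 change 0.23, SE 0.45, limma adjusted p = 0.958). The gene that rose in the main fit was Ctsg, cathepsin G, a protease of neutrophil granules that can form angiotensin II, at 8.29 in T1, against 4.71 in T0 (log2 change 3.59, SE 0.48, limma adjusted p = 0.000222). Ctsg is expressed by marrow cells, and the erythroid markers given above rose over the same step. The part of marrow or blood cells in the change of Ctsg was not tested. Mtus1, which encodes a protein that binds the type 2 receptor, changed by -0.11 (SE 0.28, limma adjusted p = 0.972). In the later steps none of the 15 passed between T1 and T2, where 0.891% of probe sets did (0.488% higher and 0.403% lower at T2). At an unadjusted p under 0.05 there were 4 of the 15, against 3125 of 36685 probe sets. None passed between T2 and T3, where 0.15% of probe sets did. In that step 6 of the 15 had an unadjusted p under 0.05, against 7264 of 36685 probe sets. From T3 to T4 there were 9 lower and 1 higher, in a step where 25.8% of probe sets were lower and 16.5% higher.

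**Figure D3:**
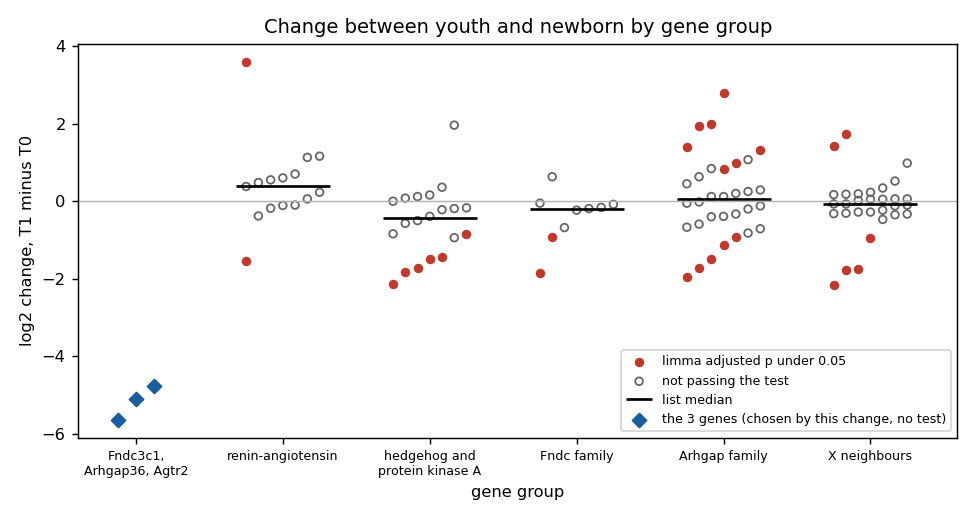
Log2 change from T0 to T1 (y axis) of the 3 genes (blue diamonds, no test) and of 5 groups of related or neighbouring genes (x axis); red points passed limma's test, open points did not, and the black bars are the medians of the groups. The medians run from -0.45 for the hedgehog and protein kinase A group to 0.38 for the renin-angiotensin group, and the lowest gene of any of these groups is at -2.17.

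Arhgap36 is known to act on the hedgehog pathway and on protein kinase A. Of 20 measured genes of 25 listed for these 6 were called lower and none higher at T1, against 4.93% of named genes lower and 6.28% higher, with a median log2 change of -0.45. The downstream transcription factors Gli2 and Gli3 were among them. Gli2 averaged 6.21 ± 0.17 at T1, against 7.66 ± 0.08 at T0 (log2 change -1.45, SE 0.20, limma adjusted p = 0.000254). Gli3 averaged 6.25 ± 0.03 at T1, against 7.97 ± 0.10 at T0 (log2 change -1.72, SE 0.25, limma adjusted p = 0.000427). Gli1, a target gene and readout of hedgehog signalling, had 5.79, 5.85 and 5.94 at T1, against 6.64, 6.64 and 6.83 at T0. These arrays did not overlap, and the change missed the threshold (-0.84, SE 0.27, limma adjusted p = 0.0867). The hedgehog co-receptor Cdon fell as well (log2 change -1.50, SE 0.40, limma adjusted p = 0.0347). The ligand Ihh, made by growth plate chondrocytes, averaged 6.46 at T1, against 6.10 at T0, and did not pass (log2 change 0.36, SE 0.27, limma adjusted p = 0.668). The target and receptor Ptch1 carried no single-symbol probe set and was not analysed here.

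Prkaca, the catalytic subunit of protein kinase A that Arhgap36 is known to bind, had the largest fall of that list. Its log2 signal was 7.32, 7.65 and 7.52 at T1, against 9.73, 9.89 and 9.27 at T0. The groups did not overlap, and the change was -2.13 (SE 0.32, limma adjusted p = 0.000524). The kinase inhibitor genes Pkia (-1.82, SE 0.26, limma adjusted p = 0.000386) and Pkig (-0.85, SE 0.20, limma adjusted p = 0.0137) fell with it, and the other catalytic subunit gene Prkacb did not pass (0.08, SE 0.41, limma adjusted p = 0.985). Prkar2b, a regulatory subunit of the kinase, moved the other way and missed the threshold, with 7.52, 7.44 and 7.38 at T1, against 5.28, 5.50 and 5.67 at T0 (log2 change 1.96, SE 0.59, limma adjusted p = 0.0612). These arrays did not overlap. The SE draws on the spread within all 5 stages. For Prkar2b the SD was 0.20 at T0, 0.07 at T1 and 1.77 at T4. Without the T4 arrays 1 gene of the list was called higher at T1. With the 6 arrays compared alone the count was also 1. Both counts were added after the data were seen. Prkaca stayed at 7.40 ± 0.29 at T2 and was 6.99 ± 0.62 at T3 and 5.53 ± 0.48 at T4 (SD, n = 3). The muscle markers that moved over the same step are given above, and their part in these changes was not tested. None of the 20 passed between T1 and T2 or between T2 and T3, where 0.891% and 0.15% of probe sets did. At an unadjusted p under 0.05 there were 3 and 4 of the 20, against 3125 and 7264 of 36685 probe sets. From T3 to T4 there were 7 lower and 1 higher, in the step where 25.8% of probe sets were lower and 16.5% higher.

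Genes that share a family name with Arhgap36 and Fndc3c1 moved in both directions. Of 32 other measured Arhgap genes 7 rose and 5 fell at T1, against 4.93% of named genes lower and 6.28% higher, with a median log2 change of 0.05. Those that rose included Arhgap30 (1.99, SE 0.30, limma adjusted p = 0.000549), Arhgap15 (2.78, SE 0.44, limma adjusted p = 0.000977) and Arhgap25 (1.33, SE 0.22, limma adjusted p = 0.0013). Blood cells are known to express these genes, and the part of blood cells in their rise was not tested. Arhgap20 fell by 1.73 (SE 0.22, limma adjusted p = 0.000192). Of 9 other measured Fndc genes 2 fell and none rose, against the same shares of named genes, with a median of -0.19. They were Fndc1, at 7.64 ± 0.31 in T1, against 9.50 ± 0.19 in T0 (log2 change -1.86, SE 0.41, limma adjusted p = 0.01), and Fndc5, the precursor of the muscle-derived peptide irisin (-0.92, SE 0.26, limma adjusted p = 0.0472). Both ended as calls with T1 replicate 3 placed with the adults and without T1 replicate 2, and 1 of them after quantile normalization and without T0 replicate 1 or 2, T1 replicate 1 or 3, T2 replicate 1, 2 or 3, or T3 replicate 1 or 3.

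The nearest relatives of Fndc3c1 took other courses. Fndc3b averaged 8.50 ± 0.21 at T1, against 9.18 ± 0.14 at T0 (log2 change -0.68, SE 0.33, limma adjusted p = 0.335). Fndc3a averaged 7.35 ± 0.08 at T1, against 6.72 ± 0.26 at T0 (log2 change 0.63, SE 0.34, limma adjusted p = 0.417). From T3 to T4 both fell, Fndc3b by 1.37 (SE 0.33, limma adjusted p = 0.00545) and Fndc3a by 1.08 (SE 0.34, limma adjusted p = 0.0211). They sat above the low end at all stages before T4, with array values of 7.07 or more for Fndc3b and 6.15 or more for Fndc3a.

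On the X chromosome the 5 nearest measured genes on each side of each of the 3, taken from the order of the RefSeq table, gave 30 neighbours, of which 4 fell and 2 rose at T1, against 4.93% of named genes lower and 6.28% higher, with a median log2 change of -0.07. Over the whole X chromosome 67 of 707 genes were called lower and 31 higher, the 3 chosen genes not taken out. The closest on both sides of each gene did not pass the test. Next to Agtr2 the actin-bundling gene Pls3 changed by 0.06 (SE 0.34, limma adjusted p = 0.987) and the amino acid transporter Slc6a14 by -0.07 (SE 0.15, limma adjusted p = 0.96). Near Arhgap36 the immunoglobulin superfamily gene Igsf1 fell by 1.75 (SE 0.24, limma adjusted p = 0.000297), to 4.21, 4.30 and 4.34 at T1, against 5.95, 6.30 and 5.86 at T0, a single step like that of Arhgap36. Near Fndc3c1 the lysophosphatidic acid receptor Lpar4 fell by 2.17 (SE 0.25, limma adjusted p = 8.28e-05) and the lymphocyte receptor P2ry10 rose by 1.43 (SE 0.28, limma adjusted p = 0.00493). Near Agtr2 Klhl13, which encodes an adaptor of a ubiquitin ligase, fell by 1.77 (SE 0.27, limma adjusted p = 0.000747) and Lrch2 by 0.96 (SE 0.21, limma adjusted p = 0.0107), and the interleukin-13 receptor Il13ra2 rose by 1.73 (SE 0.23, limma adjusted p = 0.00024).

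**Figure D4:**
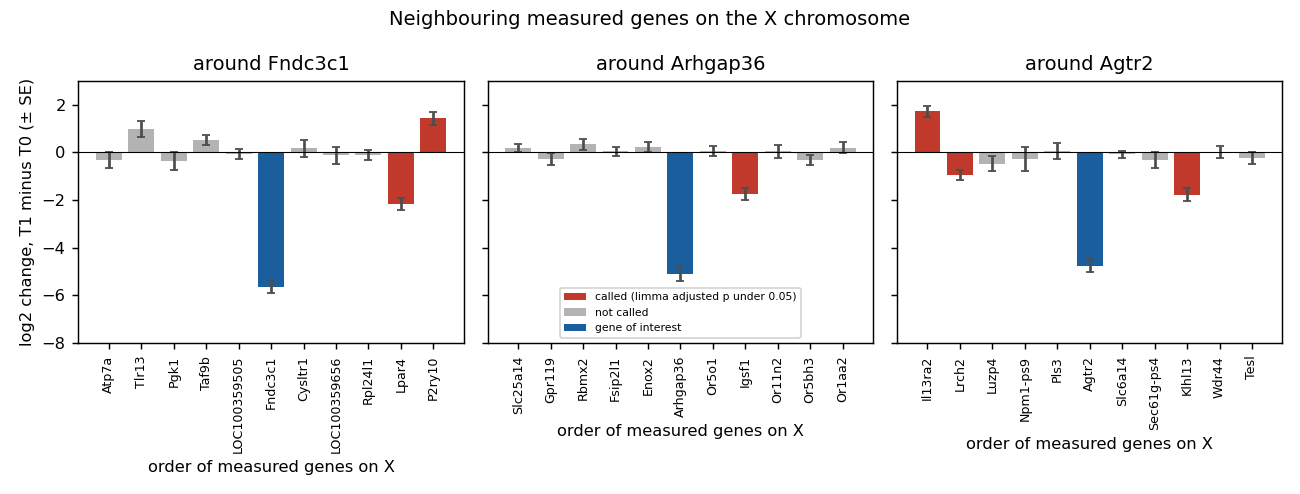
Log2 change from T0 to T1 with its SE (y axis) of Fndc3c1, Arhgap36 and Agtr2 (blue) and of the 5 nearest measured genes on each side in chromosome order (x axis); red bars passed limma's test and grey bars did not. The 3 genes lie at -5.63, -5.09 and -4.75, and the lowest neighbour is Lpar4 at -2.17.

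The X chromosome held 707 of 18059 genes with a known chromosome (3.91%). It held 67 of the 889 genes called lower at T1 (7.54%) and 31 of the 1134 called higher (2.73%). The 3 chosen genes were not taken out of the genes called lower. Among the 50 genes with the widest gap between newborn and later arrays 10 were on X (20%), a set that contains the 3 by choice. The other 7 included the cell surface proteoglycan Gpc3 (gap 4.42), Tceal7 (3.21), Bex1 (2.65), the muscle-expressed genes Atp1b4 (2.55) and Itgb1bp2 (2.48), Itm2a (2.43) and Nrk (2.32). These counts are a description, chosen after the location of the 3 was seen. Sexes are not given. Of 6 sex-linked genes listed the Y-linked Uty was measured, and it averaged 7.91 ± 0.10 at T1, against 7.89 ± 0.31 at T0 (SD, n = 3), with a log2 change of 0.02 (SE 0.35, limma adjusted p = 0.996).

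The genes with the most similar course were found by Pearson correlation over the 15 arrays among 15614 named genes. The arrays share stages, so a high value mostly records the step between newborn and later samples. The likeness of Fndc3c1 was highest to Myh8 (r = 0.986), the cartilage proteoglycan Epyc (0.981), the troponin Tnnt2 (0.977), Arhgap36 (0.975) and Itgb1bp2 (0.974). Arhgap36 was most like Fndc3c1 (0.975), the muscle acetylcholine receptor subunits Chrna1 (0.975) and Chrnd (0.971), Tnnt2 (0.970) and Zdbf2 (0.969), an imprinted gene in mouse. Agtr2 was most like the growth factor-binding Igfbp3 (0.989), the muscle calcium store protein Casq2 (0.989), the calcium pump regulator Sln (0.988), Vwa5al1 (0.986) and the collagen prolyl hydroxylase P4ha3 (0.985). Its correlation was 0.961 with Fndc3c1 and 0.920 with Arhgap36, which ranked 48th and 220th. Over the 12 arrays of T0 to T3 the sets of 5 kept 2 genes for Fndc3c1, 3 for Arhgap36 and 2 for Agtr2.

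The genes of these sets were chosen by likeness over the same arrays, so their courses are a description. Of the distance between newborn and adult means, 102% had been covered by T1 for Fndc3c1, and among the genes most like it 98.2% for Myh8, 100% for Epyc, 95.3% for Tnnt2 and 109% for Itgb1bp2. For Arhgap36 the share was 98.2%, and among the genes most like it 90.1% for Chrna1, 108% for Chrnd, 95.3% for Tnnt2 and 95.1% for Zdbf2. For Agtr2 it was 80.2%, beside 74.0% for Igfbp3, 83.3% for Casq2, 90.6% for Sln, 72.2% for Vwa5al1 and 73.0% for P4ha3. Fndc3c1 already lay within 0.64 of the olfactory receptor median at T1, which leaves little room for a further measured fall. The imprinted growth factor Igf2, which also had its highest mean in the newborn, had covered 47.6%, with 9.12 ± 0.33 at T1 and 5.50 ± 0.32 at T2 (SD, n = 3).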

How the data were processed

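Log2 signals of 36685 probe sets on 15 arrays were deposited; RMA is the method that the submitters' processing notes name. Its quantile step gives arrays like distributions of probe signals and so takes out part of any change common to most transcripts. No software version or genome build is named. Gene names came from the platform annotation, in which 18511 probe sets carried 1 symbol, 575 several and 17599 none. The probe set with the highest mean stood for a gene. Neighbours and chromosomes came from a RefSeq table (GRCr8), matched by Entrez identifier for 18059 of 18166 genes.

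Stage means were fitted together on the 15 arrays (limma 3.58.1, R 4.3.3). In each of 4 successive comparisons p-values were adjusted by Benjamini-Hochberg over every probe set, and those under 0.05 after adjustment were called. The fit was tested on simulated data. The 3 genes, the gene lists and the tests were chosen with earlier results of these data known. Successive comparisons share the arrays of a stage. From each list up to 4 called genes with the smallest p at T1 and a fixed set of pathway genes were named, with the called neighbours and the 5 genes most like each of the 3. Any other gene named was chosen after its values were seen. Same-numbered arrays did not deviate together (median correlation of deviations -0.0066 over 30 pairs, 1 of them over 0.1), so the numbers were not used as pairs.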

Additional observations from a re-analysis of the deposited data

How the results depend on the processing

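The fall of the 3 genes between newborn and youth kept its direction under all 8 other settings and without any 1 of the 15 arrays. Without 1 array it ran from -5.79 to -5.44 for Fndc3c1, -5.28 to -4.88 for Arhgap36 and -4.96 to -4.52 for Agtr2, and after quantile normalization it was -5.20, -4.66 and -4.34. From youth to adult the changes without 1 array ran from -0.09 to 0.19, -0.30 to 0.09 and -1.40 to -0.96. From T2 to T3 they ran from -0.51 to -0.10, 0.30 to 0.64 and 0.00 to 0.32, with no call in any setting (limma adjusted p from 0.0569 to 1.00). From T3 to T4 they ran from 0.50 to 0.92 for Fndc3c1, 0.77 to 1.18 for Arhgap36 and -0.21 to 0.17 for Agtr2. The Fndc3c1 call was lost without T0 replicate 3, T1 replicate 3, T2 replicate 1, 2 or 3, T3 replicate 2 or 3, or T4 replicate 1 or 3, and the Arhgap36 call without T3 replicate 2 or 3 or T4 replicate 1 or 3 (lowest 0.77, limma adjusted p = 0.0653). Agtr2 changed sign in that step after quantile normalization (-0.13), with array weights (-0.26), without T3 replicate 3 (-0.06) and without T4 replicate 1 (-0.21). Apart from the settings that leave an array out, the Fndc3c1 call was lost after quantile normalization (0.54), with the 6 arrays alone (0.72) and with the replicate block (0.72, limma adjusted p = 0.0566), and the Arhgap36 call with the 6 arrays alone (0.93).

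The counts of called probe sets were 2772, 327, 55 and 15493 in the 4 steps. Array weights, whose estimation stopped before full convergence, gave 6852, 2381, 10464 and 21580, the 6 arrays alone 5358, 596, 0 (6886 at an unadjusted p under 0.05) and 2532, and quantile normalization 1939, 147, 10 and 13240. T1 replicate 3 placed with T2 gave 1777, 9 and 47 in the first 3 steps, the fit without the T4 arrays 3921, 604 and 1895, and from T2 to T3 a mean of at least 4 gave 135, the intensity trend 85 and the replicate block 32. Without 1 array the counts ran from 1796 to 3846, 108 to 674, 0 to 4165 and 11534 to 17507. The cause was not tested. With the replicate block 4 Arhgap genes fell at T1, against 5 without it, and the other list counts at T1 were as without it.

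In the gene lists at T1, array weights gave 5 higher for renin-angiotensin, 1 higher and 10 lower for hedgehog and protein kinase A, 1 higher for Fndc, 11 higher and 9 lower for Arhgap and 4 higher for the neighbours. The 6 arrays alone gave 5, 1 and 1 higher in the first 3 of these lists and 11 higher and 9 lower for Arhgap. The fit without T4 gave 3 higher for renin-angiotensin and 1 for hedgehog, and the filter on the mean 1 higher for hedgehog. Quantile normalization gave 4 lower for hedgehog and protein kinase A, against 6 in the main fit, 1 lower for Fndc and 4 higher for Arhgap. T1 replicate 3 placed with T2 gave 4 lower for hedgehog and protein kinase A, 0 for Fndc and 3 for Arhgap. These list counts under settings other than quantile normalization, the block and that placement were added after seeing the data. Without 1 array the lists ran from 1 to 3 higher and 1 to 1 lower, 0 to 1 and 4 to 8, 0 to 0 and 0 to 2, 4 to 8 and 3 to 6, and 2 to 2 and 3 to 4. Each of the 3 genes has 1 probe set, so the mean over probe sets gives the same levels.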
